A study of Mus musculus with 30 samples.

Results

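The proteasome subunit genes of the mouse were examined in polyribosome-bound RNA from medium spiny neurons of the nucleus accumbens. Members were the protein-coding genes of GENCODE M21 whose symbol starts with Psm, one of the letters a to g and a digit. This rule found 50 genes among the 55335 genes of the count table, and it used no measured value. Psmc3ip, a recombination factor of meiosis that is named after its binding to a proteasome ATPase, matched the rule without being a proteasome subunit.

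The study profiled female mice with the RiboTag method, in which Cre recombinase switches on an HA-tagged ribosomal protein so that ribosomes of chosen neurons can be pulled down with an antibody. D1-Cre-RT mice express Cre under the dopamine D1 receptor promoter and gave the libraries called D1. A2A-Cre-RT mice express it under the adenosine A2a receptor promoter, which marks the neurons that carry the D2 receptor, and gave the libraries called D2. Neuron type and mouse line go together here, so their parts in a difference between D1 and D2 libraries cannot be told apart. The design asked how chronic witness defeat stress, in which a mouse watches another being defeated, changes the RNA of each neuron type.

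In each genotype there were 3 groups of 5 libraries. Control mice are those labelled so, without the stress. Stressed mice were sorted by a social interaction test into Resilient and Susceptible groups. All 6 groups share the tagged ribosome, the sex, the tissue and the time of collection, 24 hours after the test. Every library pooled 4 mice with like interaction scores, so a library is a pool and not a mouse, and the scores differ by design between Resilient and Susceptible. The sources used here give no ages. All 30 libraries were used.

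The 26S proteasome breaks down proteins that carry a chain of ubiquitin. Its 20S core is a barrel of alpha rings (Psma genes) around beta rings (Psmb genes), and the catalytic sites lie on Psmb5, Psmb6 and Psmb7. The 19S particle caps the barrel: its ATPases (Psmc genes) unfold the substrate, and its lid and base (Psmd genes) bind ubiquitin and cut the chain off. Under interferon, cells put Psmb8, Psmb9 and Psmb10 in place of the 3 catalytic subunits and form the immunoproteasome, which is known mostly from immune and endothelial cells rather than neurons. When proteasome activity drops, the transcription factor Nfe2l1 is known to raise subunit genes together, through promoter elements of the antioxidant-response type.

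Promoters of the core subunits Psmb5 and Psmb6, of the ATPase Psmc6 and of the lid subunit Psmd12 are shown because these 4 genes differed between D1 and D2 Control libraries and their promoter windows hold letters of the antioxidant-response type. They were chosen after their values were seen. RefSeq gave a window of 300 bases, from 250 before to 50 after the start, on GRCm38.p6 for 42 of the 50 members, in 45 windows. The motif searched was TGACNNNGC on both strands. The 250 bases up to the start are printed 5′ to 3′ on the gene's strand, with the match in capitals. The Psmb5 window is chr14:54617996-54618245 on the minus strand, and its match TGACGTCGC begins 47 bases before the start. The Psmb6 window is chr11:70525107-70525356 on the plus strand, with the match TGACGGAGC 9 bases before the start. The Psmc6 window is chr14:45329574-45329823 on the plus strand, and its match TGACTTAGC reads on the opposite strand, 227 bases before the start. The Psmd12 window is chr11:107479278-107479527 on the plus strand, with the match TGACACAGC on the opposite strand 247 bases before the start.
Psmb5: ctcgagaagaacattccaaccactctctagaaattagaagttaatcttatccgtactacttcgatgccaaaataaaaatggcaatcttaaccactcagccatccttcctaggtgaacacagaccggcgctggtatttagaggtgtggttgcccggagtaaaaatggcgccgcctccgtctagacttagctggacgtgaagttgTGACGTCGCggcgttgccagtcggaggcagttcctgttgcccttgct
Psmb6: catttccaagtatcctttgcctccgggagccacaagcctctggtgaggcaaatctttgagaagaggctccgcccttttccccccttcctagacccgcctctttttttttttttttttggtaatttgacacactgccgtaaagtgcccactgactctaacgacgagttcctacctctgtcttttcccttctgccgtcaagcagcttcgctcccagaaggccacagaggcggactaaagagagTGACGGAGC
Psmc6: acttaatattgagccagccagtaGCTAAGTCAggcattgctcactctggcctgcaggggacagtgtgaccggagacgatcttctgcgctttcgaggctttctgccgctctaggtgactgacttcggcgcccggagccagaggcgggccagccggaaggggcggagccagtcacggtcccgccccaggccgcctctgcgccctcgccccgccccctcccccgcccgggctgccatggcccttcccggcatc
Psmd12: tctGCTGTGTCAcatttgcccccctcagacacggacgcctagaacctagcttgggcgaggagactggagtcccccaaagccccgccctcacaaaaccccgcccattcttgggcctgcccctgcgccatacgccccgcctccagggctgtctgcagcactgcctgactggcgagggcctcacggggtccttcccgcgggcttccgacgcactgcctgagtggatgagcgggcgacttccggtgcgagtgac
Among these 4 windows, picked by their values, the match lay nearer the start in Psmb5 and Psmb6 and near the far end in Psmc6 and Psmd12.

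TGACNNNGC was in 6 of the 45 member windows (13.3%), those of Psmb5, Psmb6, Psmc6, Psmd12, Psmd9 and Psme4, against 12.4% of all 32851 RefSeq windows and 13.9% of the 16164 windows of genes tested. CCAAT was in 33.3% of member windows and 37.3% of windows of genes tested. CCGGAAG, the core letters bound by ETS factors, was in 16 member windows (35.6%) against 14.6% of windows of genes tested, among them those of the ATPases Psmc1, Psmc2 and Psmc6 and the lid subunits Psmd6, Psmd11, Psmd12 and Psmd13. None of the 3 motifs contains another, and a match is a description of letters only.

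The libraries held 28996168 to 65882152 counts in genes. D1 Susceptible 1 was the shallowest, with 54.9% of its counts in 1 noncoding gene, Gm42418. D2 Susceptible 1 and 2 stood apart from the rest: 15822 and 16525 genes had a count there, against 19440 to 22375 in the other libraries. D1 markers summed to 1694 to 2548 CPM in D1 libraries and 268 to 1797 CPM in D2 libraries, where CPM stands for counts scaled to 1000000 per library with TMM factors. D2 markers summed to 1120 to 2771 CPM in D1 and 4867 to 12799 CPM in D2 libraries. D2 Resilient 5 was the library with most D1 and least D2 marker RNA among the D2 libraries. Among the D1 libraries, D2 markers summed highest in D1 Susceptible 1, 4 and 5 (2771, 2671 and 2372 CPM), D1 Resilient 5 (2753 CPM) and D1 Control 1 (2254 CPM). D1 markers summed to less there, at 1707, 1912, 1694, 2167 and 1723 CPM in the same order. In such bulk samples fewer cells of a type and less RNA per cell cannot be told apart. Nothing in the labels says more about how pools relate to litters or cages, and p-values measure the spread between pools.

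Of the 50 members, 48 had enough counts to be tested. Psma8, the alpha subunit of the testis, had 146 counts over the 30 libraries, and Psme2b, a copy of Psme2, had 3; both were set aside. The median coefficient of variation over the 30 libraries was 11.2% for the 32 members with a mean of 50 CPM or more, from 6.58% for Psmb1 to 23.1% for Psmd14. The median was 13.3% for the 4226 genes at that level. The other 16 members tested had a median of 20.7%, from 9.54% to 281%.

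Levels per exon length differed by role. The 7 alpha ring genes lay at 29.6 (Psma3) to 100.4 (Psma6) CPM per kb of exon, and the 7 constitutive beta genes at 42.7 (Psmb3) to 117.7 CPM per kb (Psmb4). The catalytic subunits Psmb5, Psmb6 and Psmb7 were at 84.4, 80.1 and 66.2 CPM per kb. The ATPases held the highest member, Psmc5 at 178.0 CPM per kb, and Psmc1 at 139.8, but also Psmc6 at 25.7 CPM per kb. Lid genes lay lower, with a median of 35.1 CPM per kb, from Psmd11 at 12.2 to Psmd7 at 67.4 CPM per kb. Base genes ran from Psmd1 at 20.3 to Psmd2 at 81.5 CPM per kb, with the ubiquitin receptor Psmd4 at 56.0. The length used was the union of all annotated exons, which lowers the value of genes with long or many alternative exons.

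Helpers and regulators were lower than most structural subunits. The chaperones that build the base, Psmd5 and Psmd9, were at 6.23 and 5.54 CPM per kb, and those that build the core, Psmg1 to Psmg4, at 1.64 to 16.8 CPM per kb. Among the activators that open the core, Psme3 of the nucleus was highest at 25.4 CPM per kb, followed by Psme1 at 19.2 and its partner Psme2 at 12.8 CPM per kb. Psme4, another nuclear activator, was at 2.14 and the inhibitor Psmf1 at 4.03 CPM per kb. Of the members tested, Psmb11 of the thymus was lowest at 0.0513 CPM per kb, then Psmb9 at 0.203 and Psmb8 at 0.310. Counts of Psmb5, Psma5, Psme2 and Psmd9 are uncertain because 54.1%, 49.96%, 28.3% and 24.9% of their transcripts' stretches of 50 bases also occur in other genes.

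**Figure D1:**
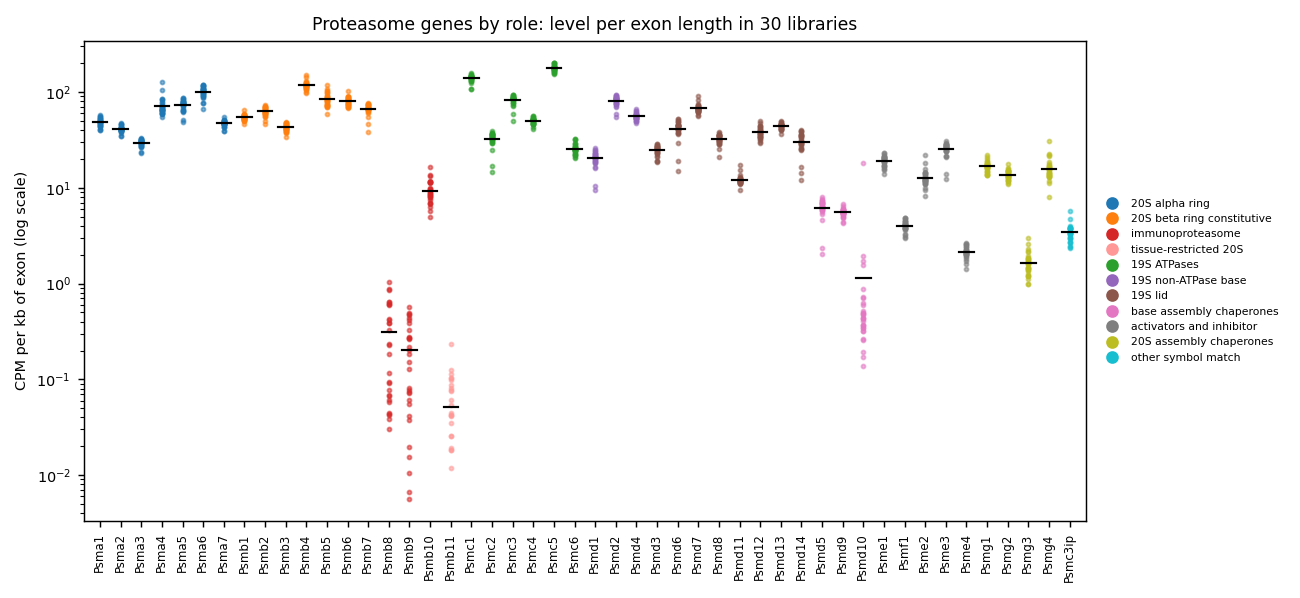
Level of each tested member in CPM per kb of exon on a log axis, 1 point per library (30 libraries, zeros not drawn), with the mean as a black bar and colours for roles. The constitutive core and cap subunits have means above 10 CPM per kb, while Psmb8, Psmb9 and Psmb11 lie below 1.

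Of the immunoproteasome genes, Psmb8 and Psmb9 were several-fold higher in D2 than in D1 libraries of Control and Resilient mice. Psmb8 (chromosome 17, 34197721 to 34201454) was at 0.771, 0.307, 0.320, 0.129 and 0.146 CPM in D1 Control libraries 1 to 5 and at 2.04, 2.91, 2.09, 3.47 and 1.32 CPM in D2 Control. Every D2 Control library was above every D1 Control library. The log2 difference, D1 against D2, was -2.80 ± 0.66 (SE; edgeR adjusted p = 0.00568). In Resilient mice Psmb8 was at 0.206, 0.232, 0.227, 0.145 and 0.259 CPM in D1 and at 1.31, 2.17, 1.43, 2.99 and 0.623 CPM in D2. These groups did not overlap either, and the difference was -2.98 ± 0.67 (edgeR adjusted p = 0.00370). In Susceptible mice D1 libraries held 0.101, 0.152, 0.197, 0.783 and 0 CPM and D2 libraries 1.40, 0.398, 2.19, 2.07 and 1.103 CPM. The 0 is a library of 53001850 counts, in which no count allows up to 0.0566 CPM. D1 Susceptible 4 lay within the D2 range, and the difference was -2.46 ± 0.67 (edgeR adjusted p = 0.00825).

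Psmb9, also on chromosome 17 (34181987 to 34187764), was low in D1 too. It was at 0.787, 0.136, 0.283, 0.222 and 0.0243 CPM in D1 Control and at 0.976, 1.61, 0.982, 1.75 and 1.02 CPM in D2 Control. The groups did not overlap, with a log2 difference of -2.10 ± 0.66 (edgeR adjusted p = 0.0418). In Resilient mice the D1 values were 0.0562, 0.0387, 0.0207, 0.0726 and 0.296 CPM and the D2 values 0.985, 1.70, 1.81, 1.41 and 1.53 CPM. That was the widest gap of any member called, -3.90 ± 0.72 (edgeR adjusted p = 4.11e-04), again without overlap. In Susceptible mice D1 libraries lay at 0.203 to 0.550 CPM and D2 libraries at 0.150, 2.10, 0.667, 1.19 and 0.750 CPM, and the difference of -1.42 ± 0.65 was not called (edgeR adjusted p = 0.111). D2 Susceptible 1, with 7 counts of Psmb9, fell below all D1 Susceptible libraries, of which D1 Susceptible 1 held 2 counts. These levels rest on few reads: Psmb8 had 0 to 49 and Psmb9 1 to 50 counts per D1 library.

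Psmb10, the third inducible subunit, was at 8.52 to 27.9 CPM over the 30 libraries, above the other two in each, and did not show their pattern. It was at 16.6, 19.6, 17.1, 19.5 and 19.4 CPM in D1 Resilient and at 8.52, 13.5, 12.7, 11.8 and 9.87 CPM in D2 Resilient. D1 was higher in all 5 libraries, by 0.71 ± 0.20 log2 (edgeR adjusted p = 0.0227), a call lost without D2 Resilient 1 (edgeR adjusted p = 0.0904). In Control the D1 libraries held 23.5, 19.9, 19.03, 15.002 and 16.1 CPM and the D2 libraries 14.6, 13.8, 14.0, 22.8 and 14.4 CPM, with D2 Control 4 inside the D1 range. The difference there was 0.23 ± 0.20 log2 and was not called.

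Set against the constitutive subunit it replaces, per exon length, Psmb8 amounted to 0.123% ± 0.0844 of Psmb5 in D1 Control and 0.700% ± 0.229 in D2 Control (SD, n = 5). Psmb9 amounted to 0.105% ± 0.1009 of Psmb6 in D1 Control and 0.382% ± 0.0945 in D2 Control. Psmb10 amounted to 15.8% ± 3.08 of Psmb7 in D1 Control and 13.8% ± 4.54 in D2 Control. The highest ratio of Psmb8 or Psmb9 in any library was 1.04%, for Psmb8 in D2 Resilient 4. In plain CPM that library held 2.99 of Psmb8 and 76.2 of Psmb5, whose counts are uncertain as stated above. The ratios depend on the union exon lengths, 3381 bases for Psmb8 against 899 for Psmb5 and 3660 for Psmb9 against 1872 for Psmb6. Both ratios are thus lower than in plain CPM, while that of Psmb10 (1705 bases) to Psmb7 (3421 bases) is higher.

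Markers of other cell types also differed between D1 and D2 libraries. The 7 endothelial markers were all called higher in D2 in each of the 3 groups, and their summed level was 16.4 to 45.1 CPM in D1 and 70.2 to 348 CPM in D2 libraries. Of the 7 astrocyte markers, 5 were called higher in D2 Control, with sums in Control of 74.0 to 283 CPM for D1 and 206 to 338 CPM for D2. Of the 7 microglia markers, 0 were called in Control, with sums of 10.3 to 42.2 CPM in D1 and 14.4 to 46.8 CPM in D2. In Resilient, 3 microglia markers were called higher in D2. Interneuron markers were higher in D1: 4 of 7 were called in Control, 4 in Resilient and 6 in Susceptible, with sums of 296 to 483 CPM in D1 and 68.2 to 284 CPM in D2 libraries. Oligodendrocyte markers called higher in D2 numbered 0 in Control, 3 in Resilient and 5 in Susceptible, with sums of 391 to 1044 CPM in D1 and 445 to 1923 CPM in D2. No marker of the endothelial, astrocyte and microglia lists was at 0 in all libraries, and the part of these cell types in the Psmb8 and Psmb9 difference was not tested.

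**Figure D2:**
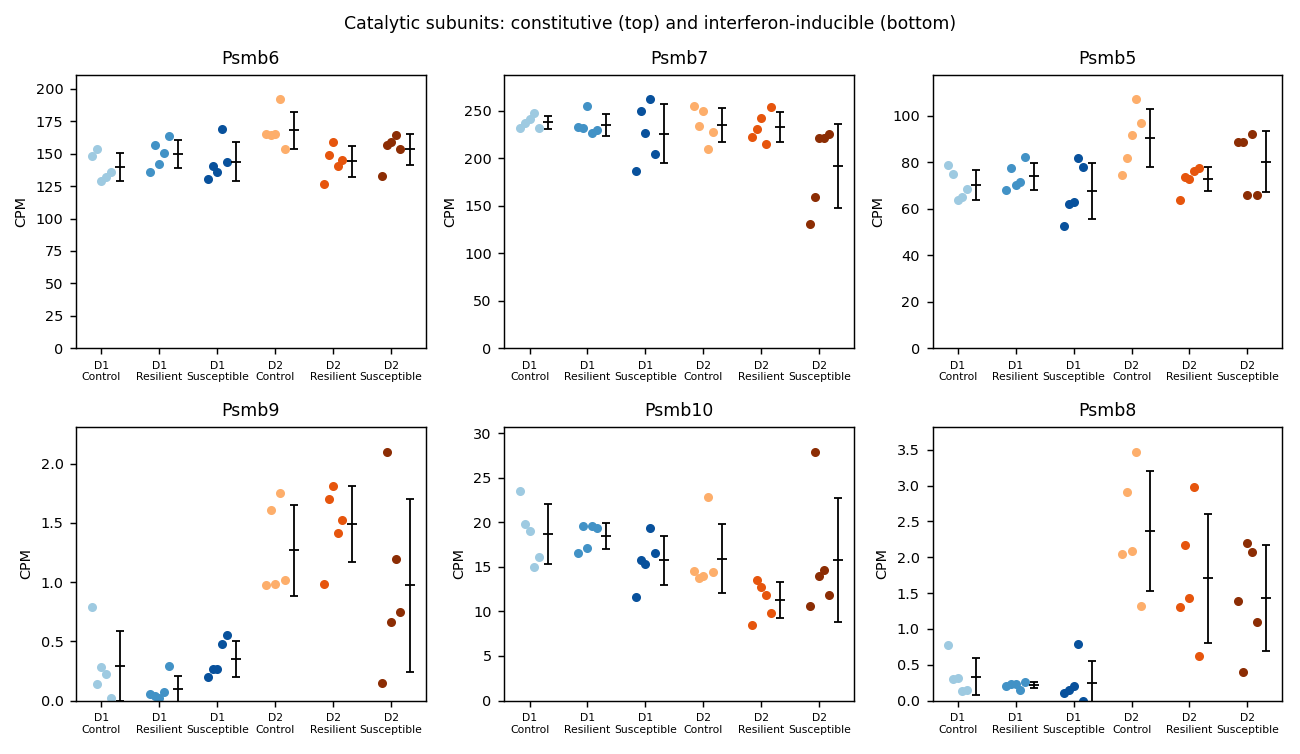
CPM of the constitutive catalytic subunits (top) and the inducible subunit that replaces each (bottom), 1 point per library in 6 groups of 5, with mean and SD to the right of each group. Psmb8 and Psmb9 are higher in D2 Control and Resilient than in D1, while Psmb10 is not, and the axes differ between panels.

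Among the core subunits, the catalytic pair Psmb5 and Psmb6 was higher in D2 than in D1 Control. Psmb5, the chymotrypsin-like site, was at 78.8, 74.8, 63.6, 65.1 and 68.4 CPM in D1 Control and at 74.7, 82.0, 91.6, 107.0 and 97.0 CPM in D2 Control. The groups overlapped only through D2 Control 1. The log2 difference was -0.37 ± 0.11 (edgeR adjusted p = 0.0408). Psmb6, the caspase-like site, was at 149, 154, 129, 132 and 136 CPM in D1 and at 165, 165, 165, 192 and 154 CPM in D2 Control. D1 Control 2 and D2 Control 5 met at 154 CPM, and the difference was -0.27 ± 0.08 (edgeR adjusted p = 0.0389). D2 Control 4 held the highest value of both genes over the 30 libraries. Without it the differences were -0.29 log2 for Psmb5 (edgeR adjusted p = 0.196) and -0.20 log2 for Psmb6 (edgeR adjusted p = 0.204), and neither was called. Psmb7, the trypsin-like site, showed no such gap, with 232 to 247 CPM in D1 and 210 to 256 CPM in D2 Control (0.03 ± 0.11 log2). Neither gap was called in Resilient, where Psmb5 was at 68.0 to 82.2 CPM in D1 and 63.9 to 77.4 CPM in D2, or in Susceptible.

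Psmc6 and Psmd12 went the other way. Psmc6, an ATPase of the base, was at 86.6, 91.0, 112, 111 and 112 CPM in D1 Control and at 86.0, 77.8, 80.8, 70.9 and 100.9 CPM in D2 Control. D2 Control 5 lay within the D1 range, and the difference was 0.30 ± 0.09 log2 (edgeR adjusted p = 0.0401). Psmd12, a lid subunit, was at 95.2, 103, 133, 116 and 126 CPM in D1 and at 89.7, 95.8, 96.4, 76.9 and 91.7 CPM in D2 Control. The groups touched through D1 Control 1, and D1 was higher by 0.35 ± 0.09 log2 (edgeR adjusted p = 0.0132). Psmd12 was also called higher in D1 Susceptible, by 0.25 ± 0.09 (edgeR adjusted p = 0.0424).

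Together with Psmb8, Psmb9 and Psmd10 these made 7 of 48 members called in Control, 3 of them higher in D1 libraries. Of all 19368 genes tested, 8.30% were called (3.51% higher in D1, 4.80% higher in D2). The median log2 difference of the members was 0.02, and that of all genes 0.00. Of the 30 fits that left out 1 library each, Psmb8 was called in 30 and Psmd12 in 29, but Psmc6 in 24, Psmb9 in 14, Psmb5 in 9 and Psmb6 in 8. Without a filter on low counts Psmb5, Psmb6, Psmb9 and Psmc6 were not called.

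Psmd10, a chaperone of base assembly also known as gankyrin, was called higher in D1 Control through 1 library. It was at 0.535, 0.375, 0.471, 0.499 and 26.5 CPM in D1 Control and at 0.287 to 0.727 CPM in D2 Control. D1 Control 5 held 1093 counts of it, and no other library held more than 194. The log2 difference was 3.34 ± 0.91 (edgeR adjusted p = 0.0182) with that library and -0.23 without it (edgeR adjusted p = 0.922). Without this library the change of Psmd10 from D1 Control turned from -2.44 to 1.14 log2 in D1 Resilient and from -2.69 to 0.88 log2 in D1 Susceptible. Its gene lies on the X chromosome (140948429 to 140956728).

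In Resilient mice 3 of 48 members were called between D1 and D2 libraries, Psmb10 higher in D1 and Psmb8 and Psmb9 higher in D2. Of all genes tested 6.65% were called, 2.75% higher in D1 and 3.90% higher in D2.

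In Susceptible mice 13 of 48 members were called, 7 higher in D1 and 6 higher in D2, against 23.9% of all genes tested, 10.5% higher in D1 and 13.4% higher in D2. Those higher in D1 were the activator Psme3 (0.49 ± 0.13), the chaperone Psmd5 (0.66 ± 0.20), the base scaffold Psmd1 (0.48 ± 0.15), the lid subunits Psmd6, Psmd8 and Psmd12 and the ATPase Psmc2. Those higher in D2 were the activator Psme2 (-0.52 ± 0.14), Psmb8, the alpha subunit Psma4 (-0.49 ± 0.14), the lid subunits Psmd7 (-0.26 ± 0.08) and Psmd11, and Psmc3ip (-0.44 ± 0.16). Without D2 Susceptible 1 and 2, which had the fewest genes detected, 1 member was called, Psmb8 at -2.74 ± 0.64 (edgeR adjusted p = 0.00401). With only these 2 groups in the edgeR fit, 0 members were called, Psmb8 included (edgeR adjusted p = 0.162).

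**Figure D3:**
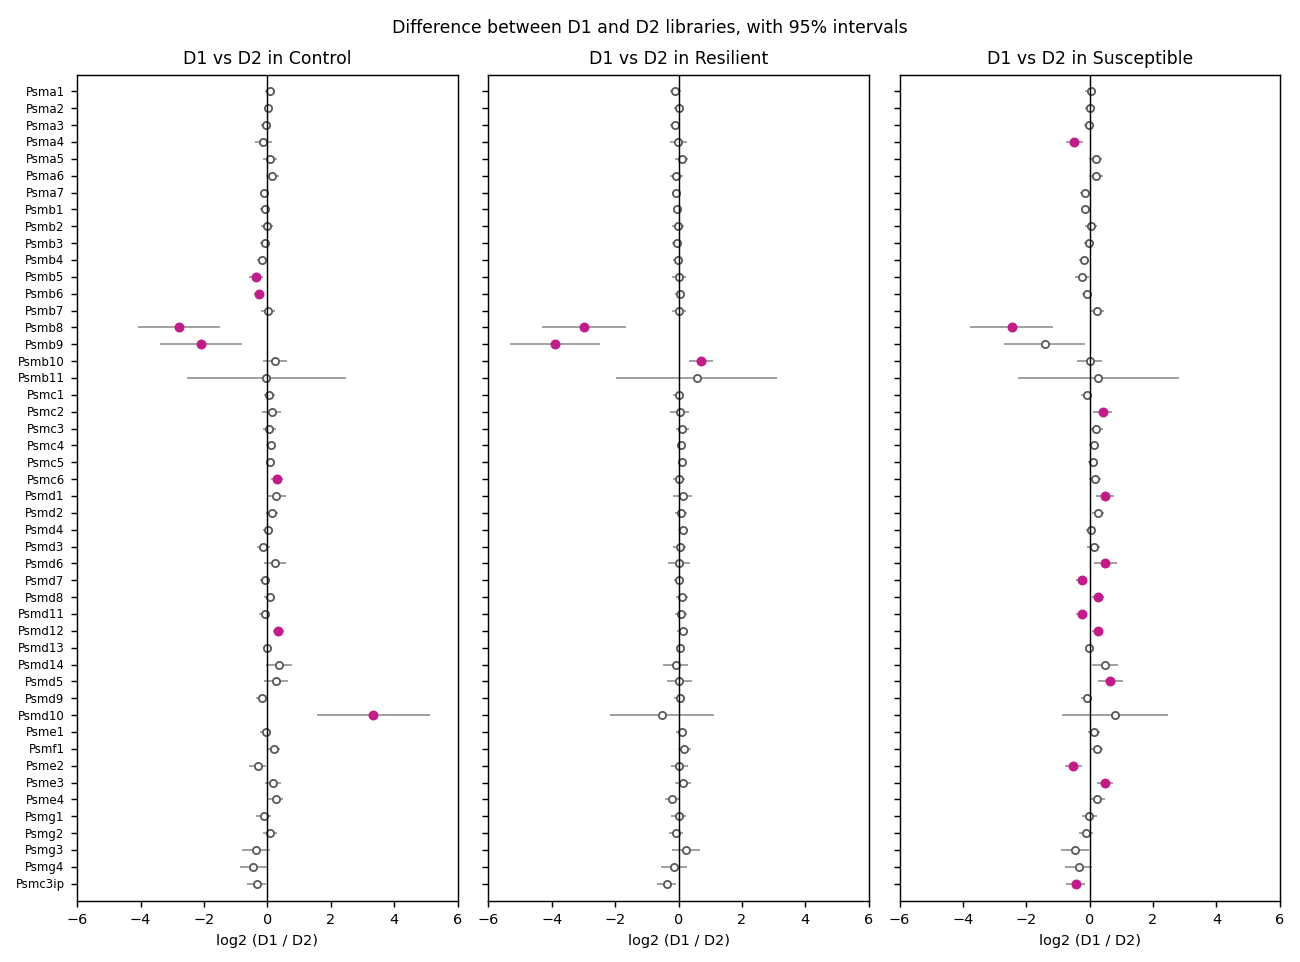
Log2 difference between D1 and D2 libraries for the 48 tested members in Control, Resilient and Susceptible mice, with 95% intervals; filled points have an edgeR adjusted p under 0.05, and values above 0 are higher in D1. Psmb8 is filled in all 3 panels, and most of the 13 filled points of the Susceptible panel are empty in the others.

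No proteasome gene passed the threshold in a comparison among the stress groups. In each of the 6 comparisons among Control, Resilient and Susceptible libraries of 1 neuron type, 0 of 48 members had an edgeR adjusted p under 0.05. Of all 19368 genes tested, the share called was 0% in the 3 D1 comparisons and for D2 Resilient against Control, 0.00516% for D2 Susceptible against Control and 0.0516% for D2 Susceptible against Resilient. DESeq2 called 1 member in these comparisons, Psmd6 in D2 Susceptible against Resilient, and voom with quality weights 1, Psmc6 in D1 Resilient against Control. The summed level of the tested members was 5233 ± 184 CPM in D1 Control, 5154 ± 158 in D1 Resilient and 4935 ± 421 in D1 Susceptible (SD, n = 5). In D2 it was 5120 ± 90.3 CPM in Control, 5048 ± 198 in Resilient and 4734 ± 305 in Susceptible. Within the Susceptible groups 2 libraries of each neuron type were low. D1 Susceptible 1 and 5 held 4403 and 4574 CPM, and D1 Susceptible 2 to 4 held 5276, 5104 and 5322 CPM. Gm42418 took 54.9% and 5.46% of the counts of D1 Susceptible 1 and 5. These 2 libraries also had high D2 marker sums, as did D1 Susceptible 4. The part of Gm42418 or of D2 marker RNA in the sums was not tested. D2 Susceptible 1 and 2 held 4358 and 4445 CPM, and D2 Susceptible 3 to 5 held 4958, 4959 and 4950 CPM.

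In D1 neurons, 2 of 48 members had an unadjusted edgeR p under 0.05 between Susceptible and Control, both lower in Susceptible, against 2.40% of all genes. Besides Psmd10 this was the alpha subunit Psma2, at 144 ± 15.7 against 160 ± 8.85 CPM (-0.15 ± 0.07 log2). Between Resilient and Control there were also 2, Psmd10 and Psmb9, against 2.60% of all genes. Between Susceptible and Resilient there were 3, against 3.49% of all genes. Psmb9 was at 0.352 ± 0.151 against 0.0967 ± 0.113 CPM, Psme4 at 19.9 ± 2.14 against 16.4 ± 2.88 CPM, and Psme1 at 40.1 ± 5.01 against 46.6 ± 3.27 CPM. No group pair among these was free of overlap. The median log2 difference of the 48 members was -0.08 for Susceptible and -0.02 for Resilient against Control, with -0.01 for all genes in both. For Susceptible it was -0.04 without D1 Susceptible 1. These comparisons share the D1 Control libraries.

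In D2 neurons, 3 of 48 members had an unadjusted edgeR p under 0.05 between Resilient and Control, all lower in Resilient, against 4.20% of all genes. Psmb5 was at 63.9, 73.9, 72.6, 76.2 and 77.4 CPM in D2 Resilient, which lay within or below the D2 Control values given above (-0.31 ± 0.11 log2, edgeR adjusted p = 1.00). Psmb6 was at 127, 149, 159, 140 and 145 CPM in D2 Resilient (-0.22 ± 0.08). Without D2 Control 4 the changes were -0.25 log2 for Psmb5 and -0.17 log2 for Psmb6. The D2 Control libraries are the same as in the comparison of D1 with D2 Control. Psmb10 was at 8.52 to 13.5 CPM, below all 5 D2 Control libraries (-0.50 ± 0.20). Psmb7 had 233 ± 15.6 CPM in D2 Resilient against 235 ± 18.2 CPM in Control.

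D2 Susceptible against Control gave 10 of 48 members at an unadjusted p under 0.05, against 15.7% of all genes. All 10 were lower in Susceptible, where 7.00% of all genes were lower and 8.68% higher. The median of the 48 members was -0.12 log2 and 39 of them were negative, while the median of all genes was -0.03. Without D2 Susceptible 1 and 2 these medians were -0.05 and -0.01. They were the alpha subunits Psma5 and Psma6, the catalytic subunit Psmb7, the ATPases Psmc2 and Psmc3, the base scaffold Psmd1, the lid subunits Psmd6 and Psmd8 and the activators Psme1 and Psme3. The smallest p belonged to Psme1, at 34.96, 30.6, 37.6, 41.5 and 37.7 CPM in D2 Susceptible and at 46.3, 44.7, 50.7, 37.7 and 45.3 CPM in D2 Control (-0.30 ± 0.09 log2, edgeR adjusted p = 0.164). The groups overlapped through D2 Control 4.

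D2 Susceptible against Resilient gave 16 of 48 members at an unadjusted p under 0.05, 11 lower and 5 higher in Susceptible, against 19.1% of all genes, 8.26% lower and 10.8% higher. The lower ones were led by Psmd6 (-0.55 ± 0.18), Psme3 (-0.38 ± 0.13), Psmd5 (-0.56 ± 0.20) and Psmd14 (-0.57 ± 0.20), and the higher ones by Psma4 (0.38 ± 0.14), Psmg3 (0.61 ± 0.23), Psmd11 (0.24 ± 0.09) and Psmb10 (0.49 ± 0.20). The smallest edgeR adjusted p among them was 0.104. The D2 Susceptible libraries are shared by both comparisons.

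**Figure D4:**
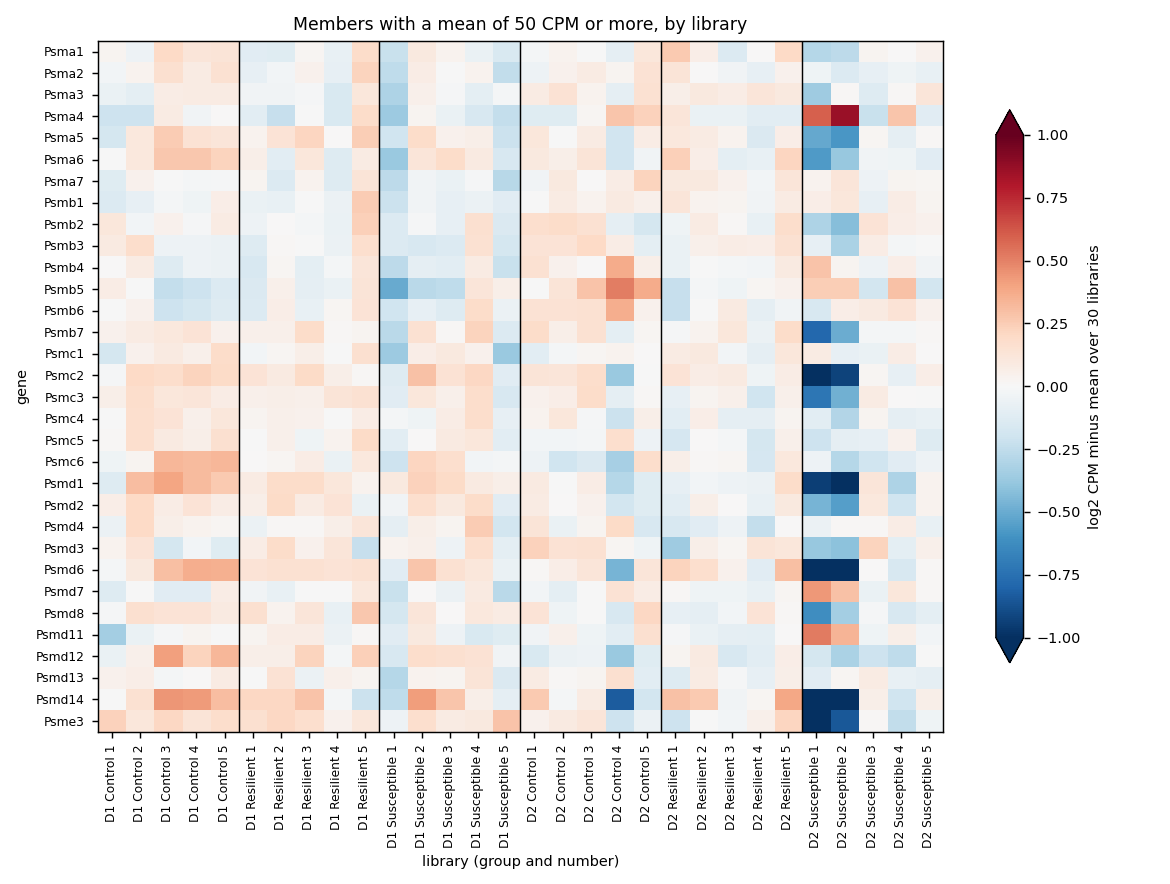
Log2 CPM of the 32 members with a mean of 50 CPM or more, minus the gene's mean over the 30 libraries, with libraries in columns by group and colours capped at 1 in either direction. D2 Susceptible 1 and 2 differ from the other libraries in many rows, with Psma4, Psmd7 and Psmd11 in red and Psmd6, Psmd14, Psmc2 and Psme3 in blue.

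D2 Susceptible 1 and 2 held the lowest values of the members that led the lower side of these comparisons. Psmd14, the lid enzyme that cuts ubiquitin chains off the substrate, was at 33.8 and 39.8 CPM in these libraries and at 85.7, 71.7 and 86.0 CPM in D2 Susceptible 3 to 5. D2 Resilient libraries held 100.9, 98.7, 80.3, 83.7 and 108 CPM of it. Psmd6, another lid subunit, was at 41.8 and 53.2 CPM against 113, 101.3 and 114 CPM in the other 3. Psmd5 was at 17.0 and 14.7 CPM against 45.5, 38.5 and 45.7 CPM. Psme3 was at 36.1 and 40.8 CPM against 74.3, 62.2 and 71.3 CPM, and Psmc2 at 73.4 and 84.6 CPM against 163, 152 and 169 CPM. In each of these 5 genes both libraries lay below all others of the study.

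Other members ran opposite in the same libraries. Psma4 was at 250 and 300 CPM in D2 Susceptible 1 and 2 and at 142, 200 and 153 CPM in 3 to 5. Psmd7, the lid partner of Psmd14, was at 205 and 186 CPM against 145, 164 and 153 CPM, and Psmd11 at 110 and 97.6 CPM against 74.9, 80.3 and 75.7 CPM. Among the lid genes there were thus members far below and members above the other libraries.

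Of the 48 members, 15 lay below all other libraries in both D2 Susceptible 1 and 2, and 3 above, against 15.7% and 10.3% of all genes tested. Of the 32 members with a mean of 50 CPM or more, 14 lay below and 3 above, against 21.7% and 18.6% of the 4226 genes at that level. Without these 2 libraries, the 16 members at an unadjusted edgeR p under 0.05 between D2 Susceptible and Resilient became 0 of 49, where 5.45% of all genes were past it, and the 10 between D2 Susceptible and Control became 4 of 49, where 5.600% were. D2 Control 4 leaned the same way in several members. Psmd14 was at 46.3 CPM there, against 72.7 to 99.1 CPM in the other D2 Control libraries. Psmd6 was at 81.8 against 114 to 123 CPM and Psma4 at 200 against 152 to 194 CPM. Psmd11 went the other way, at 71.8 against 75.0 to 86.1 CPM. The log2 ratio of D2 Susceptible 1 and 2 to 3 to 5 was set against that of D2 Control 4 to the other 4. Spearman rho was 0.74 across the 48 members and 0.36 across all genes tested. At 50 CPM or more it was 0.75 across the 32 members and 0.71 across the 4226 genes. Members of a library share its depth and RNA, so these values of rho describe those libraries.

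Oligodendrocyte markers were high in the same libraries, at a sum of 1923 and 1486 CPM in D2 Susceptible 1 and 2 and 1420 CPM in D2 Control 4, against 445 to 1142 CPM in the other D2 libraries. Over the whole groups, the median oligodendrocyte marker differed by -0.03 log2 in D2 Susceptible against Control and by 0.17 against Resilient. The median D1 neuron marker differed more, by -1.01 and -1.25 log2. The median interneuron marker differed by -0.88 and -0.46, and 0 markers of these lists were called. D1 markers summed to 556 and 479 CPM in D2 Susceptible 1 and 2 and to 268, 346 and 296 CPM in 3 to 5. The highest sums of the groups compared with them were 1182 CPM in D2 Control 5 and 1797 CPM in D2 Resilient 5. The part of these markers in these differences was not tested, nor was that of the number of genes detected.

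**Figure D5:**
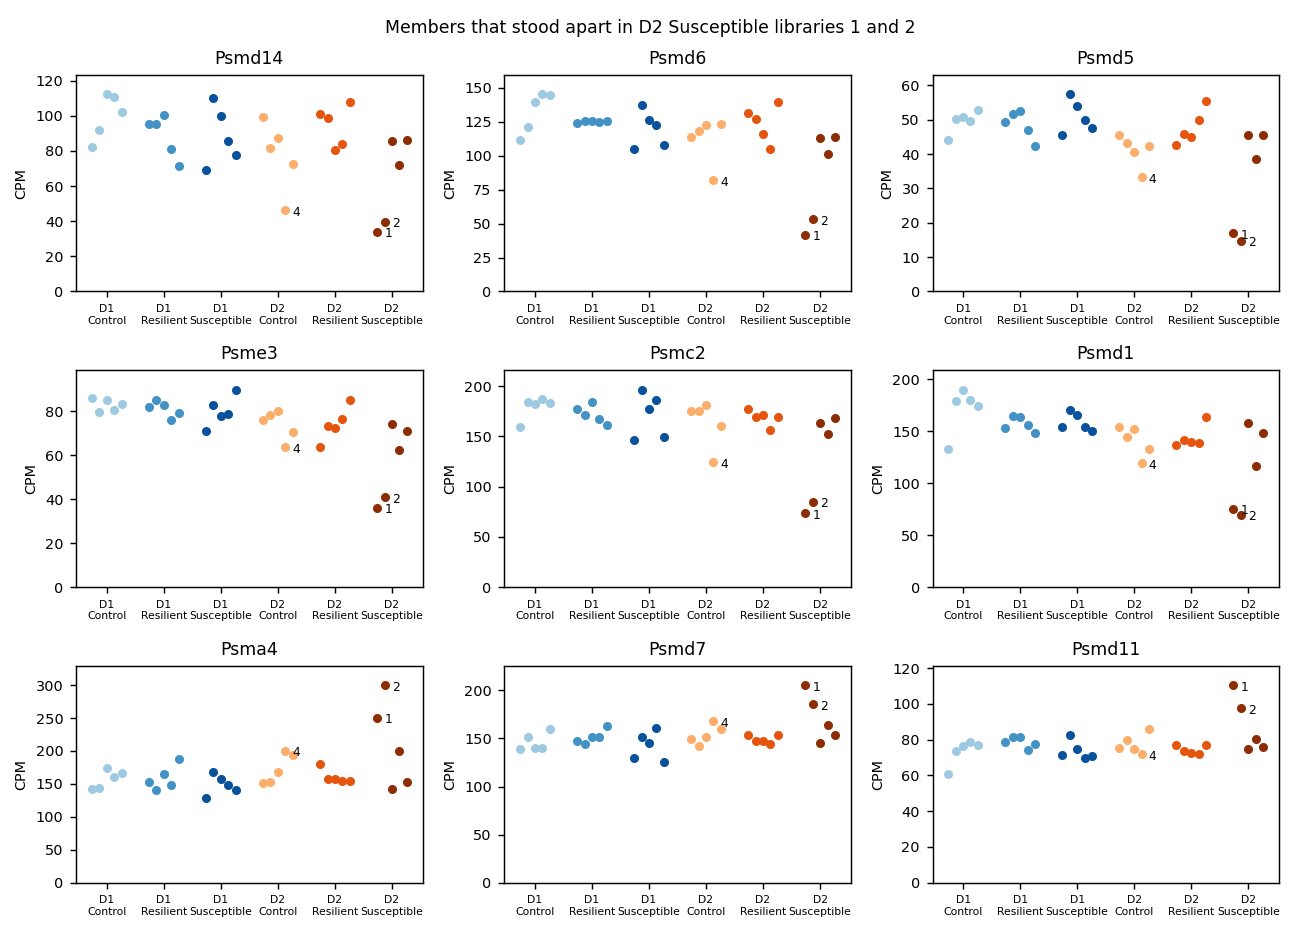
CPM of 9 members in every library, 1 point each in 6 groups of 5, with D2 Susceptible 1 and 2 and D2 Control 4 marked by number. The first 6 genes are lowest in D2 Susceptible 1 and 2, and Psma4, Psmd7 and Psmd11 are highest there.

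Whether the change among stress groups differed between D1 and D2 libraries was tested as the D1 change minus the D2 change. For each of the 3 changes, 0 of 48 members and 0% of all genes had an edgeR adjusted p under 0.05. At an unadjusted p under 0.05 there was 1 member for Susceptible against Control (7.79% of all genes), Psmd10. There were 5 for Resilient against Control (4.99% of all genes). Among them, Psmb5 (0.39 ± 0.16 log2) and Psmb6 (0.32 ± 0.12) had the higher change in D1, and Psme4 (-0.46 ± 0.17) the lower. The Control libraries are those of the comparisons above, so these values are not separate from them. There were 9 for Susceptible against Resilient (12.4% of all genes), led by Psme2 (-0.54 ± 0.20) and Psmb9 (2.48 ± 0.93), with a smallest edgeR adjusted p of 0.289.

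Other genes of the ubiquitin-proteasome pathway were read from a list of 53 symbols, of which 50 were in the table and 49 tested. In Control, 4 of 49 were called, against 8.30% of all genes. That count was 1 without D1 Control 3, 6 without D2 Susceptible 1, 10 without D2 Susceptible 1 and 2, and 25 with voom. The 4 were all higher in D1, against 3.51% of all genes: Usp14 and Uchl5, the deubiquitinases that dock on the 19S particle, Txnl1, a redox protein bound to its lid, and Cul3, a ubiquitin ligase scaffold. Usp14 was at 193 ± 26.5 CPM in D1 and 142 ± 18.5 CPM in D2 Control (0.44 ± 0.11 log2, edgeR adjusted p = 0.00683). Uchl5 was at 69.9 ± 13.2 against 53.4 ± 2.43 CPM (0.39 ± 0.12, edgeR adjusted p = 0.0392). Sem1, the smallest lid subunit, was at 59.0 ± 1.91 against 86.9 ± 12.7 CPM and missed the threshold (edgeR adjusted p = 0.0509), as did the ubiquitin gene Rps27a at 142 ± 12.97 against 193 ± 37.1 CPM (edgeR adjusted p = 0.0722).

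In Resilient 0 of 49 pathway genes were called between D1 and D2 libraries, against 6.65% of all genes. In Susceptible 13 were called, 9 higher in D1 and 4 higher in D2, against 23.9% of all genes. That count was 9 without D2 Susceptible 1, 24 without D2 Susceptible 3, 2 without D2 Susceptible 1 and 2, and 0 with only these groups in the fit. In the 6 stress comparisons 0 were called by edgeR, and DESeq2 called 3 for D2 Susceptible against Resilient. Without D2 Susceptible 3 edgeR called 8 in that comparison and 1 for D2 Susceptible against Control. Nfe2l1 had 402 ± 20.1 CPM in D1 Control against 406 ± 18.5 CPM in D1 Susceptible, with 371 ± 32.6 and 354 ± 29.0 CPM in D2 Control and Susceptible. Ddi2, the protease that activates it, was at 61.6 ± 2.90 CPM in the Control libraries of D1 and at 59.0 ± 2.31 CPM in those of D2. Pomp, the chaperone of core assembly, had 154 ± 9.16 CPM in D2 Resilient against 191 ± 47.1 CPM in Susceptible (0.31 ± 0.11 log2, edgeR adjusted p = 0.132). Adrm1, a ubiquitin receptor of the 19S particle, was at 65.7 ± 9.86 and 56.7 ± 21.9 CPM in the same groups.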

How the data were processed

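The authors deposited unnormalized read counts per gene for 30 libraries, both per library and as a series table with equal values. HISAT2, HTSeq and the builds GRCm38 and mm10 are named in the submitters' processing notes, but the sources used here give no versions, annotation release or strand setting, so reads of overlapping antisense genes cannot be told apart. Per the labels' protocols, 10 ng of RNA from polyribosomes pulled down from 4 punches per mouse went into SMART-Seq v4 libraries, which carry no molecular identifiers, so limits for a count of 0 (3 counts) cover counting error only. Lines of unassigned reads stayed out of library sizes (10.1% to 53.3% of reads). Symbols came from GENCODE M21 by identifier (55154 of 55335), and so did coordinates, on GRCm38.

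Counts were fitted with edgeR 4.0.16 (R 4.3.3; filterByExpr with a minimum count of 10, TMM, quasi-likelihood F test, 6 groups in one model, 19368 genes, Benjamini-Hochberg adjustment, threshold 0.05). The model was tested on simulated data, in which the spread was set by a formula and no library stood apart. That test cannot show how the model handles libraries that stand apart. Alternatives were DESeq2 1.42.0, its size factors in edgeR, limma 3.58.1 voom with quality weights, no filter, a fit of only the groups compared, a replicate block and leaving out each library. Leaving out D2 Susceptible 1 and 2, and these with D1 Susceptible 1, was chosen after seeing the data. The members, gene lists and marker lists were chosen with earlier results of these data known. Names were drawn by a rule that took, per comparison, up to 4 members in each direction with the smallest p. It also took the catalytic, inducible and regulatory subunits, Psmd4, Psmd14, Psmc3ip, the 3 highest and 3 lowest per exon length and those set aside. Pathway genes were the 2 in each direction with the smallest p in D1 against D2 Control and in D2 Susceptible against Resilient. Nfe2l1, Ddi2, Pomp, Adrm1, Sem1, Usp14 and Uchl5 were always included. The rule also drew Psmd3, Psma7 and Cul1, and Usp14 for D2 Susceptible against Resilient, whose values are not given here. Other genes that it drew are not given for every comparison. Psmd5, Psmd6, Psmd11 and Psmc2 values, and all values in D2 Control 4, were added after seeing the data. The rule for promoters found no member, and those shown were chosen as stated. CPM used TMM-scaled library sizes, and library ratios a pseudocount of 0.5 CPM. Male and human data were not analysed here.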

Additional observations from a re-analysis of the deposited data

Results flagged for a closer look

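Within the groups of 5 libraries, 12 of 114 sets of values had 1 library far from the others, by a gap of more than 0.71 of the whole range (Dixon's 95% limit). Chance gives about 1 in 20 for independent, normal values in sets fixed beforehand. These sets share libraries, and some of their genes were added after seeing the data, so their number cannot be judged by that rate. Some belonged to D2 Susceptible 1 and 2 or D2 Control 4, some to low genes, and others to neither. Psmd10 was at 26.5 CPM in D1 Control 5, with the other D1 Control libraries at 0.375 to 0.535 CPM. Psmb10 was at 22.9 CPM in D2 Control 4 and at 27.9 CPM in D2 Susceptible 2, with the other libraries of these groups at 13.8 to 14.6 and 10.6 to 14.7 CPM. Psme2 was at 39.2 CPM in D2 Susceptible 1 (others 21.04 to 25.1) and at 27.8 CPM in D1 Resilient 5 (others 19.4 to 21.5). Psmd6 was at 81.8 CPM in D2 Control 4, below 114 to 123 CPM.

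Among low values, Psmb8 was at 0.783 CPM in D1 Susceptible 4 (others 0 to 0.197) and Psmb9 at 0.296 CPM in D1 Resilient 5 (others 0.0207 to 0.0726). The remaining sets were Psmb7 at 255.6 CPM in D1 Resilient 3 (others 227 to 233), Psma4 at 179.9 CPM in D2 Resilient 1 (others 154 to 158), Psmc2 at 159 CPM in D1 Control 1 (others 182 to 188) and the summed members at 4910 CPM in D1 Control 1 (others 5285 to 5364).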

How the results depend on the processing

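In the 6 stress comparisons the count of members called stayed at 0 of 48 under most alternatives. It was 1 for D1 Resilient against Control with voom and 1 for D2 Susceptible against Resilient with DESeq2. Leaving out 1 library at a time gave 0 to 2 for D2 Susceptible against Control and 0 to 9 for D2 Susceptible against Resilient. For D1 against D2 in Control the 7 calls became 3 without a filter, 15 with voom, 11 without D1 Susceptible 1 and D2 Susceptible 1 and 2, and 2 to 7 without 1 library. In Resilient the 3 calls became 5 with voom. In Susceptible the 13 calls became 8 without a filter, 0 with only the groups compared, 4 with voom, 1 without D2 Susceptible 1 and 2, 1 without D1 Susceptible 1 as well, and 6 to 18 without 1 library. Psmd10 in Control ran from -0.23 without D1 Control 5, a reversal, to 3.65 log2 without D1 Control 2. Fewer samples were fitted in the last cases, and for the rest the cause was not tested.

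A replicate block gave 5 calls in Control, 3 in Resilient, 12 in Susceptible and 0 in the stress comparisons. Same-numbered libraries did not deviate together (correlations of -0.17 to 0.08 over 15 pairs of groups, and 2 of 30 libraries closest to their own number), so the numbers were not taken to pair libraries. Depth limits the low members: Psmb8 and Psmb9 had 0 to 50 counts in each D1 library, and Psma8 and Psme2b had too few to be tested.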
